A study of Mus musculus with 2 samples.

Results

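The 10 genes described here were followed in single nuclei of the mouse vagus nerve ganglia, where the sensory neurons of the vagus have their somata, because between them they tell tissue macrophages from microglia: *Mrc1*, *Cd163*, *F13a1* and *Lyve1* mark tissue macrophages, *Csf1r* and *Cx3cr1* are receptors of both, *Tmem119*, *P2ry12* and *Sall1* mark microglia, and *H2-Ab1* stands for MHC class II. They were chosen by symbol, and all 10 had a row among the 32286 genes counted, of which 26032 had a unique molecular identifier (UMI, a counted RNA molecule) in some nucleus. The question was which of the microglia genes were found in the nuclei that hold macrophage RNA, since the study took *Mrc1* as its marker of microglia. Ganglia were flash-frozen and pooled by sex, 14 from 7 females and 16 from 8 males, their nuclei were freed with detergent, and 1 library of 3' ends was sequenced of each pool. All mice were C57BL/6J, carried Rosa26-floxed-STOP-Cas9-eGFP, in which Cas9 and eGFP wait behind a stop that Cre removes, ate standard chow, were 8 to 9 weeks old when bought, and had received a retrograde virus with Cre in the liver 4 weeks before. Both pools carried the virus, and a pool cannot be divided into its animals. As each sex had 1 library, sex and library cannot be told apart, no test of a difference was made, and every interval given is a 95% interval of counting error alone.

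Macrophages of peripheral nerves and ganglia are resident phagocytes, and those along vessels and at tissue borders are known for scavenger and lectin receptors. Microglia are the resident macrophages of the brain and spinal cord, where TGF-beta signalling upholds a set of genes that includes *Tmem119*, *P2ry12* and *Sall1*. Macrophages and microglia share much of their machinery, including the receptors for CSF1 and fractalkine, so that a single shared gene does not tell them apart.

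The nuclei were clustered anew without the 10 members and without the wider lists of microglia, tissue macrophage and MHC class II genes, so that no member chose the class in which it was then measured. Among 20 clusters, 1 took the name macrophage-like from a general list of 20 genes, such as *Ptprc* (the leukocyte phosphatase CD45), *Spi1* and *Adgre1* (F4/80), of which 19 reached 1.5-fold with at least 10 UMIs in it. It held 272 of 8714 nuclei, 136 in each library, which was 3.59% of the female nuclei (3.02 to 4.23) and 2.76% of the male nuclei (2.32 to 3.26). Together they gave 562432 UMIs, 272938 of them female and 289494 male, with a median of 1799.5 UMIs per nucleus and a range of 995 to 7427. Although neither had entered the clustering, *F13a1* and *Mrc1* were the genes of highest fold in the cluster. The other clusters formed 10 classes, 9 of them named from markers and 1 unnamed, and since all names were rebuilt, the nuclei need not be those of the study's own clusters. Neuron-like nuclei, a class that should lack macrophage genes, are set beside the macrophage-like ones, although their median of 7224 UMIs was far higher. In the macrophage-like nuclei *Xist* gave 366 female UMIs and no male UMI, while *Ddx3y* gave 0 and 31. In each library 8 nuclei carried a barcode sequence also found in the other, none of them macrophage-like.

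The members differ in length, and unspliced RNA was counted too. On GRCm38, *Mrc1* spans chr2:14229392-14332057 on the plus strand in 30 exons, *F13a1* chr13:36867178-37050244 on the minus strand in 15, and *P2ry12* chr3:59216272-59262871 on the minus strand in 4. *P2ry12* lies wholly inside *Med12l*, a Mediator subunit gene of the opposite strand. *Tmem119*, at chr5:113793729-113800516 on the minus strand, covers 6.79 kb, and *Sall1*, at chr8:89027235-89044162 on the minus strand, covers 16.9 kb. In length *H2-Ab1*, at 11.7 kb, and *Lyve1*, at 12.6 kb, lie between them. *Cd163* lies at chr6:124304656-124330527 on the plus strand, *Lyve1* at chr7:110850607-110863239 on the minus strand, *Cx3cr1* at chr9:119901616-120069879 on the minus strand and *H2-Ab1* at chr17:34257689-34269419 on the plus strand. Sequence before the RefSeq start on GRCm38.p6 was at hand for 6 of the 10 members. It is shown for *Mrc1* and *F13a1*, the members found in most macrophage-like nuclei, and for *P2ry12*, the microglia member found in most of them. Each is given as the 250 bases up to the start, 5′ to 3′ on the gene's strand. Capitals mark AGGAAG, a sequence that ETS factors such as PU.1 (*Spi1*) can bind, or its complement CTTCCT:
Mrc1, chr2:14229164-14229413, plus strand: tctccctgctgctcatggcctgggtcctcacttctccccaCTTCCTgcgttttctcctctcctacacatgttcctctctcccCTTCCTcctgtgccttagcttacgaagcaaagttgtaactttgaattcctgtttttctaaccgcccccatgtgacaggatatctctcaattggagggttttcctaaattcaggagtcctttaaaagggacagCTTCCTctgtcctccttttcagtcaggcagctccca
F13a1, chr13:37050245-37050494, minus strand: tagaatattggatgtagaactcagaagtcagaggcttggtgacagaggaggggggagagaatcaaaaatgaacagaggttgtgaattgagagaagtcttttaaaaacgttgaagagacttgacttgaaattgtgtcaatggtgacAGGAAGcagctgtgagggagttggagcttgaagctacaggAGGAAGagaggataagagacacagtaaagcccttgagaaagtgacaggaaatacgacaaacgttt
P2ry12, chr3:59262986-59263235, minus strand: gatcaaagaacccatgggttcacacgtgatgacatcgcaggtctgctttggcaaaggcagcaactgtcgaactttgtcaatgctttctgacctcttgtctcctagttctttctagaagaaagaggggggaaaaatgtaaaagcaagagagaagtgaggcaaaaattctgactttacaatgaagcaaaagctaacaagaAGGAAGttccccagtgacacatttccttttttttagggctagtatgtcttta
These letters occurred 3 times before *Mrc1*, all on the other strand, 2 times before the start of *F13a1* shown, 1 time before its other start, at chr13:37049214-37049463, and 1 time before *P2ry12*. They did not occur before *Cd163* or *Cx3cr1*, and they occurred before 1 of the 3 starts of *Sall1*. Of all 32851 windows of this length, 29.5% held them on either strand, so a match is a description and not a sign of binding.

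The tissue macrophage members stood high in the macrophage-like nuclei. *Mrc1*, which encodes the mannose receptor CD206, gave 408 female and 279 male UMIs, or 14.9 UMIs per 10000 UMIs (13.5 to 16.5) and 9.64 (8.54 to 10.8). Over both libraries its level was 12.2 (11.3 to 13.2), against 0.305 (0.186 to 0.471) in adipocyte-like nuclei, the class next in order, and 0.0484 in neuron-like nuclei, the lowest. That is 40.1-fold the next class (25.7 to 66.0), and the intervals of the classes do not overlap. *F13a1*, the A chain of coagulation factor XIII and a gene of resident macrophages, gave 518 and 341 UMIs, or 19.0 per 10000 (17.4 to 20.7) for females and 11.8 (10.6 to 13.1) for males. Its level of 15.3 over both was 57.5-fold (43.1 to 78.4) that of pituitary cell-like nuclei, which came next at 0.265. Of all UMIs of these genes in the series, the 272 nuclei held 62.7% for *Mrc1* and 57.4% for *F13a1*. Both were thus found mainly in this class, in which the male level was lower for either gene.

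*Cd163*, the scavenger receptor for haptoglobin and haemoglobin, differed between the libraries by less than its intervals. It gave 54 female and 63 male UMIs, a level of 1.98 per 10000 (1.49 to 2.58) and 2.18 (1.67 to 2.78). Adipocyte-like nuclei again came next, at 0.0762, so that macrophage-like nuclei stood 27.3-fold higher (11.4 to 85.6). *Lyve1*, a hyaluronan receptor of lymphatic vessels and of a vessel-associated kind of macrophage, was scarce. It gave 5 UMIs in 4 female nuclei and 13 UMIs in 10 male nuclei, or 0.183 (0.0595 to 0.428) and 0.449 (0.239 to 0.768) per 10000. Endothelial cell-like nuclei came next with 7 UMIs and a level of 0.0587, and the ratio of 5.45 has a wide interval (2.17 to 15.4). *Lyve1* was therefore a gene of a small share of these nuclei at this depth. Of 6 lymphatic endothelial markers, none was 2-fold above the other classes here: *Reln* had 56 UMIs, below its mean elsewhere, *Prox1*, *Flt4* and *Ccl21a* had 1 each and *Mmrn1* none.

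**Figure D1:**
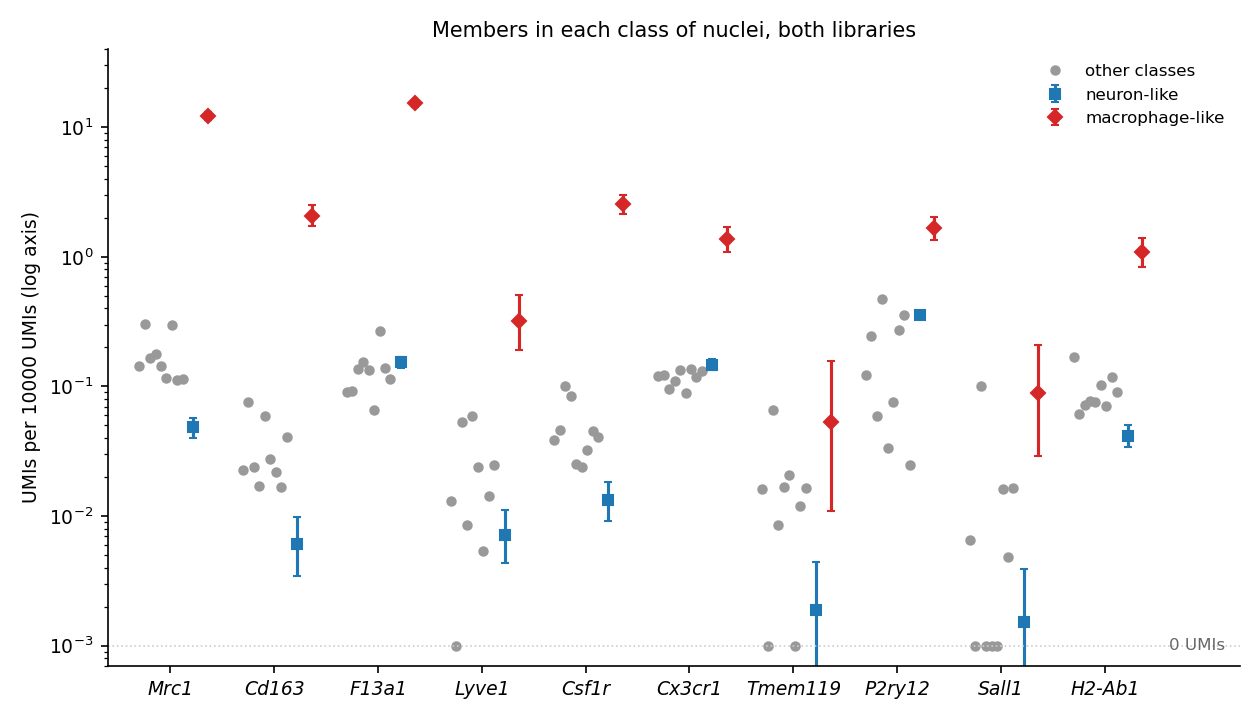
Level of each member in the 11 classes of nuclei, both libraries together, as UMIs per 10000 UMIs on a log axis, with 95% Poisson intervals for macrophage-like and neuron-like nuclei and points alone for the other classes. The macrophage-like level lies above all other classes for 8 members, and within the range of the others for *Tmem119* and *Sall1*.

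The receptors shared by macrophages and microglia were both present. *Csf1r*, the receptor for CSF1 and IL-34 on which macrophages and microglia depend, gave 83 female and 61 male UMIs, 3.04 per 10000 (2.42 to 3.77) and 2.11 (1.61 to 2.71). It was 25.3-fold (15.3 to 44.6) above barrier fibroblast-like nuclei, next at 0.101. *Cx3cr1*, the fractalkine receptor, gave 45 and 32 UMIs, 1.65 per 10000 (1.20 to 2.21) and 1.11 (0.756 to 1.56). The other classes held it at 0.0893 to 0.147, each overlapping its neighbour in the order. The interval of neuron-like nuclei, the highest of them, lay just above that of fibroblast-like nuclei, the lowest. Macrophage-like nuclei stood 9.31-fold (7.20 to 11.9) above the highest of them. Of the *Cx3cr1* UMIs of the series, 11.5% lay in macrophage-like nuclei, against 55.2% for *Csf1r*. The annotation draws *Cx3cr1* over 168 kb that cross 9 other genes, 3 of them on its own strand, among them *Gorasp1* and *Csrnp1*, and the sources used here do not say how reads were divided there.

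Of the 3 microglia members, 1 stood above all other classes. *P2ry12*, a purine receptor that guides microglial processes, gave 56 UMIs in 39 female nuclei and 38 UMIs in 32 male nuclei, 2.05 per 10000 (1.55 to 2.66) and 1.31 (0.929 to 1.80). Its level of 1.67 (1.35 to 2.05) over both was the highest of the 11 classes, 3.51-fold (2.49 to 4.97) above cerebellar granule cell-like nuclei. Among the other classes *P2ry12* was uneven. It stood at 0.477 in granule cell-like, 0.355 in satellite glia-like and 0.353 in neuron-like nuclei, and at 0.0336 in endothelial cell-like nuclei and 0.0246 in the unnamed cluster. The intervals of the first 3 lie above those of the last 2, and 934 of its 1375 UMIs lay in neuron-like nuclei, so a UMI of *P2ry12* by itself did not mark a macrophage-like nucleus. *Med12l*, which encloses it, was also highest of the other classes in granule cell-like nuclei, at 2.48, and also lowest in the unnamed cluster, at 0.312, and endothelial cell-like nuclei, at 0.201. The order of the classes parted elsewhere: *Med12l* was at 1.76 in pituitary cell-like, 1.68 in adipocyte-like, 1.44 in neuron-like, 0.978 in macrophage-like and 0.796 in satellite glia-like nuclei. Whether some *P2ry12* UMIs outside the class come from *Med12l* RNA was not tested.

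*Tmem119* and *Sall1* were at the edge of what could be counted. *Tmem119*, a membrane protein of microglia, gave 2 UMIs in 1 female nucleus and 1 UMI in 1 male nucleus, a level of 0.0533 per 10000 (0.0110 to 0.156). Its highest level was in barrier fibroblast-like nuclei, 0.0655 (0.0327 to 0.117) from 11 UMIs, with an overlapping interval and a ratio of 0.815 (0.146 to 3.08). *Sall1*, the transcription factor that upholds microglial identity, gave 5 UMIs in 2 female nuclei and none in 136 male nuclei, and 1 nucleus held 4 of the 5. Its level of 0.0889 (0.0289 to 0.207) was again no higher than the 0.101 (0.0589 to 0.162) of barrier fibroblast-like nuclei, which held 17 UMIs in 16 nuclei. Without the nucleus of 4 UMIs it was 0.0179. A count of 0 in the male nuclei, read as at most 3, allows a level of up to 0.104, or up to 2.21% of nuclei with a UMI. By the exact interval the share could be up to 2.68%. Each barrier fibroblast-like count came from both libraries, 4 and 7 UMIs for *Tmem119* and 9 and 8 for *Sall1*. Neither gene set the macrophage-like class apart, and 3 UMIs over the whole class would have read as 0.0533, so a low level was not detectable at this depth.

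*H2-Ab1*, the beta chain of an MHC class II molecule that presents antigen to T cells, gave 43 UMIs in 29 female nuclei and 18 UMIs in 15 male nuclei. Its level was 1.58 (1.14 to 2.12) for females and 0.622 (0.369 to 0.983) for males. Schwann cell-like nuclei came next at 0.169 (0.126 to 0.221), 6.43-fold lower (4.37 to 9.50). Macrophage-like nuclei were thus its class of highest level, although they held 16.9% of its UMIs, 61 against 110 in the more numerous and deeper neuron-like nuclei.

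Counted by a common rule, 9 of the 10 members were at least 2-fold above the mean of the other classes with 0.05 added to both levels, *Tmem119* being the exception at 1.57-fold. *Sall1* passed at 2.15-fold on its 5 UMIs. Among all 19305 genes with at least 20 UMIs in the series, 6.45% passed. Genes chosen for macrophages and microglia were measured in a class named from other macrophage genes, so this count describes the class and tests nothing. Summed, the 4 tissue macrophage members gave 1681 UMIs or 29.9 per 10000 (28.5 to 31.4), and the 3 microglia members 102 UMIs or 1.81 (1.48 to 2.20), of which *P2ry12* made up 94. Since long genes can gather more intronic reads, levels were also divided by gene length. Exonic and intronic reads were not told apart, so whether levels here grow with length was not tested. Per 10 kb of gene, *Mrc1* stood at 1.19 UMIs per 10000 (1.10 to 1.28), *H2-Ab1* at 0.925 (0.707 to 1.19), *F13a1* at 0.834 (0.779 to 0.892), *Csf1r* at 0.811 (0.684 to 0.955) and *Cd163* at 0.804 (0.665 to 0.964). The intervals of the last 4 overlap one another, and that of *H2-Ab1* also overlaps *Mrc1*. *P2ry12* followed at 0.359 (0.290 to 0.439) and *Lyve1* at 0.253, also overlapping. *Cx3cr1* (0.0814), *Tmem119* (0.0786) and *Sall1* (0.0525) came last on this scale of level per length, with intervals that overlap, and below that of *P2ry12*. The span of *Cx3cr1* is that of GENCODE vM21, which need not be the annotation counted with, and a shorter gene model would raise its value.

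The share of nuclei with a UMI gave the same picture once depth was made equal. As sequenced, 64.3% of macrophage-like nuclei (58.3 to 70.0) had *Mrc1*, 58.1% *F13a1*, 36.4% *Csf1r*, 26.1% *P2ry12*, 24.6% *Cd163*, 23.9% *Cx3cr1*, 16.2% *H2-Ab1* and 5.15% *Lyve1*. *Tmem119* and *Sall1* were each found in 2 of 272 nuclei, or 0.735% (0.0892 to 2.63). In neuron-like nuclei, as sequenced, 23.5% (21.8 to 25.3) had *P2ry12*, close to the macrophage-like share, and 13.5% had *Cx3cr1*, while 3.98% had *Mrc1*. With each nucleus thinned to 1000 UMIs, which left out 1 nucleus of each class, *P2ry12* was in 14.4% (10.4 to 19.1) of macrophage-like and 2.54% (1.93 to 3.27) of neuron-like nuclei. *Cx3cr1* was then in 13.3% and 1.44%, and *Mrc1* in 51.7% and 0.656%. Equal depth thus drew apart the shares of *P2ry12* that had looked alike. For *Tmem119* and *Sall1* the thinned shares were still 0.738% in the macrophage-like class, against 0 and 0.0437% in the neuron-like one, and the intervals overlap (0.0895 to 2.64 against at most 0.161 and 0.243).

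**Figure D2:**
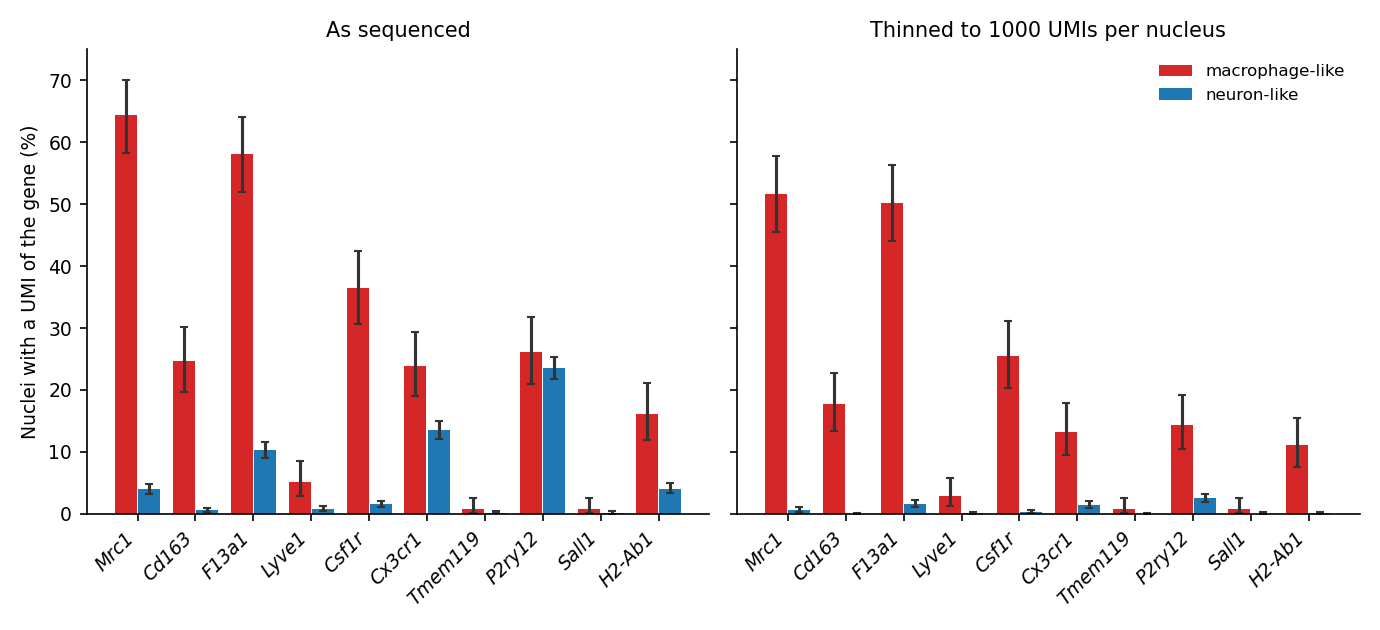
Percent of macrophage-like (272) and neuron-like (2287) nuclei with a UMI of each member, as sequenced on the left and thinned to 1000 UMIs per nucleus on the right, with exact binomial 95% intervals. *P2ry12* is found in 26.1% and 23.5% as sequenced but in 14.4% and 2.54% after thinning.

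*P2ry12*, found in 71 of the 72 macrophage-like nuclei with a microglia member, was mostly found in nuclei that also held a tissue macrophage member. Of the 72 macrophage-like nuclei with a UMI of a microglia member, 64 (88.9%) also had one of a tissue macrophage member, as had 201 of all 272 (73.9%), and 8 had none. Of the 71 nuclei with *P2ry12*, 56 had *Mrc1* (78.9%) and 54 had *F13a1* (76.1%), where 64.3% and 58.1% of all 272 had them. Nuclei with *P2ry12* were a little deeper, with a median of 1949 UMIs against 1725 without, and their levels per UMI were higher. The part of depth and of RNA from other cells in these differences was not tested. *F13a1* stood at 21.6 per 10000 (19.4 to 24.0) with and 12.7 (11.6 to 13.8) without *P2ry12*, and *Mrc1* at 15.6 (13.8 to 17.7) and 10.8 (9.81 to 11.9). Within each library the *F13a1* intervals stay apart, while those of *Mrc1* overlap in the female one. Both nuclei with *Sall1* had *P2ry12*, *Csf1r* and *Cx3cr1*, and 1 of them had *Mrc1*, while neither had *F13a1*, *Cd163* or *Lyve1*. Of the 2 nuclei with *Tmem119*, 1 had *Mrc1*, and neither had *Csf1r* or *Sall1*. In all, 40 nuclei (14.7%) held no member, with a median of 1707.5 UMIs.

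Divided by *Mrc1*, the 175 nuclei with a UMI and the 97 without differed in *F13a1* and *Cd163*. The intervals of *Lyve1*, with 17 UMIs and 1 UMI, overlapped. *F13a1* was at 23.8 (21.6 to 26.0) in female and 16.0 (14.2 to 18.0) in male nuclei with *Mrc1*, and at 6.87 (5.14 to 8.98) and 4.64 (3.44 to 6.12) in those without. *Cd163* was at 2.55 (1.90 to 3.37) and 3.19 (2.42 to 4.13) with, and at 0.518 (0.141 to 1.33) and 0.464 (0.151 to 1.08) without. In either library the intervals of both genes stayed apart. *P2ry12* went the same way, at 2.07 (1.63 to 2.58) with and 0.865 (0.494 to 1.40) without over both libraries, though its intervals overlap within each library. So did *Csf1r*, at 3.02 (2.49 to 3.63) with and 1.62 (1.09 to 2.32) without, again with overlap within each library. *H2-Ab1* did not, at 1.09 (0.779 to 1.47) with and 1.08 (0.660 to 1.67) without. *Maf* was at 11.5 (10.5 to 12.7) with and 4.16 (3.29 to 5.20) without, and *Fcrls*, a microglia gene of the wider list, at 1.72 (1.33 to 2.19) and 0.378 (0.152 to 0.780). Within each library the *Maf* intervals stay apart, while those of *Fcrls* overlap in the male one. Median depth was 1864 UMIs with and 1689 without *Mrc1*.

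The nuclei with *Lyve1* were few. All 14 had *F13a1*, 13 had *Mrc1*, 12 had *Csf1r*, 10 had *Cd163* and 8 had *P2ry12*, while 2 had *H2-Ab1*. They were deeper, with a median of 2411.5 UMIs against 1781.5. *Cd163* stood at 6.87 per 10000 (4.49 to 10.1) in them and at 1.73 (1.40 to 2.13) in the others, and *F13a1* at 38.9 (32.8 to 45.7) and 13.6 (12.6 to 14.6). The *F13a1* intervals are apart in each library and those of *Cd163* in the male one. The 44 nuclei with *H2-Ab1* differed, over both libraries, in *Ccr2* and also in *Maf*, which the split by *Mrc1* had parted too. *Maf* was at 6.07 (4.57 to 7.90) with and 9.69 (8.82 to 10.6) without *H2-Ab1*. *Ccr2*, the chemokine receptor of recruited monocytes and their offspring, was at 5.78 (4.02 to 8.04) in female and 2.33 (0.935 to 4.79) in male nuclei with *H2-Ab1*, and at 1.79 (1.27 to 2.46) and 1.39 (0.972 to 1.92) in those without. Only the female intervals are apart. *Mrc1* was at 11.0 (8.97 to 13.4) with and 12.4 (11.5 to 13.5) without *H2-Ab1*, and *P2ry12* at 1.99 (1.18 to 3.14) and 1.61 (1.27 to 2.02). Split by *Ccr2* itself, the 61 nuclei with it had *F13a1* at 6.23 (4.94 to 7.76), *Mrc1* at 6.78 (5.43 to 8.36) and *Cd163* at 0.623 (0.269 to 1.23), below the 17.9, 13.8 and 2.51 of the 211 without. Their *H2-Ab1* was higher, 2.42 (1.64 to 3.43) against 0.691 (0.466 to 0.987), with the female intervals apart and the male ones overlapping, and *P2ry12* was at 1.79 (1.14 to 2.69) and 1.64 (1.28 to 2.06). Pooled over the libraries, nuclei with and without *Ccr2* thus differed in *F13a1*, *Mrc1*, *Cd163* and *H2-Ab1*, and *P2ry12* was found in both sets. That split was chosen after values were seen, and nuclei of a library are not replicates. The splits did not all part the same genes, since the *Mrc1* intervals overlapped between nuclei with and without *H2-Ab1*.

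**Figure D3:**
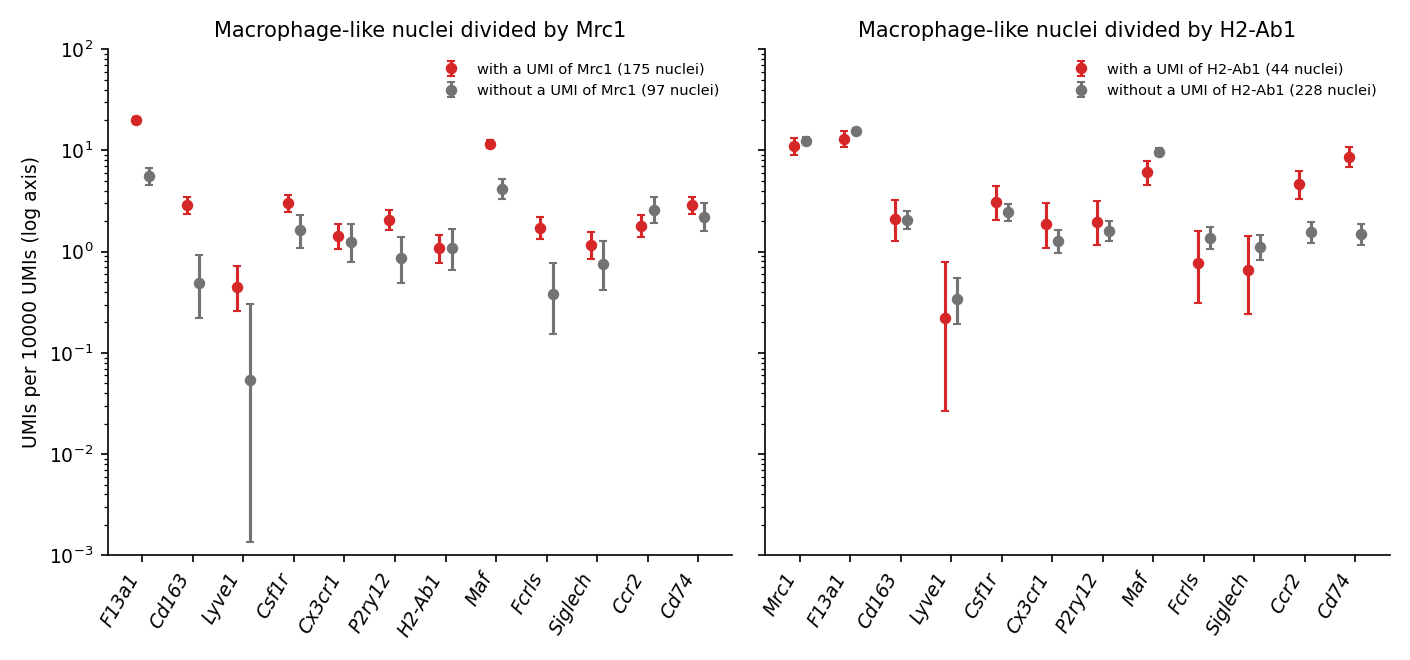
Levels of members and of 5 further genes, as UMIs per 10000 UMIs on a log axis with 95% Poisson intervals, in macrophage-like nuclei with (red) and without (grey) a UMI of *Mrc1* on the left and of *H2-Ab1* on the right, both libraries together. *F13a1*, *Cd163* and *Maf* are higher beside *Mrc1*, and *Ccr2* and *Cd74* beside *H2-Ab1*.

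Wider lists put the members in context. Of 12 further microglia genes, 10 had a UMI in macrophage-like nuclei. Of the 10 with at least 20 UMIs in the series, 8 were at least 2-fold above the mean of the other classes. *Fcrls*, an Fc receptor-like protein, stood at 1.28, with 44 female and 28 male UMIs. *Siglech*, a sialic acid-binding lectin, was at 1.03 (0.783 to 1.33), with 36 and 22 UMIs, and *Csf3r*, the receptor for G-CSF, at 0.889 (0.660 to 1.17), with 29 and 21. *Fcrls*, *Siglech* and *Csf3r* were at most 0.0271 in any other class. *Sall3* and *Slc2a5* had no UMI. Over the class that allows up to 0.0533 with 0 read as at most 3 UMIs, and up to 0.0656 by the exact interval. *Olfml3* (5 UMIs) and *Adgrg1* (7) were higher in fibroblast-like and satellite glia-like nuclei. Some genes of the microglia list were therefore found in these nuclei and some were not. All 12 of the wider tissue and border macrophage genes had a UMI, and the 9 with at least 20 UMIs in the series all passed 2-fold. *Maf*, a transcription factor of resident macrophages, stood at 9.10 (8.33 to 9.93) but was higher still in Schwann cell-like nuclei, at 10.2, whereas *Stab1* at 2.68 (2.27 to 3.15), *Ms4a7* at 1.49 (1.19 to 1.85) and *Timd4* at 0.622 (0.433 to 0.865) had their highest level here. *Stab1* is a scavenger receptor and *Timd4* a receptor for phosphatidylserine. As background, 6.45% of all genes passed 2-fold.

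The MHC class II genes beside *H2-Ab1* shared its class of highest level. Between the libraries they did not all go as it did. *H2-Eb1* was at 2.67 in female and 1.24 in male nuclei and *H2-Aa* at 2.53 and 2.11, while *Ciita* was higher in the male library, at 0.696 and 0.898. *Cd74*, the invariant chain, stood at 2.67 (2.26 to 3.13), *H2-Aa*, the partner chain of *H2-Ab1*, at 2.31 (1.93 to 2.74), *H2-Eb1* at 1.94 (1.59 to 2.34) and *Ciita*, the transactivator of the whole set, was found with 19 female and 26 male UMIs. Of the 6, 5 passed 2-fold and all had their highest level in macrophage-like nuclei, *H2-DMa* by less than its interval. *Cd74* was at 9.25 in female and 7.64 in male nuclei with *H2-Ab1*, and at 1.65 (1.15 to 2.29) and 1.39 (0.972 to 1.92) in those without, with intervals apart in each library. Among 8 ligands and receptors around the members, *Tgfbr1* at 4.02 (3.51 to 4.58) and *Tgfbr2* at 3.06 (2.62 to 3.55), the receptors of TGF-beta, and *Tgfb1* at 0.836 (0.614 to 1.11), the ligand, passed 2-fold. *Tgfb3* was at 0.107. The ligands of *Csf1r* and *Cx3cr1* lay elsewhere: *Csf1* and *Cx3cl1* were highest in endothelial cell-like nuclei, at 0.487 and 0.210, and *Il34* in barrier fibroblast-like nuclei, at 1.98.

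**Figure D4:**
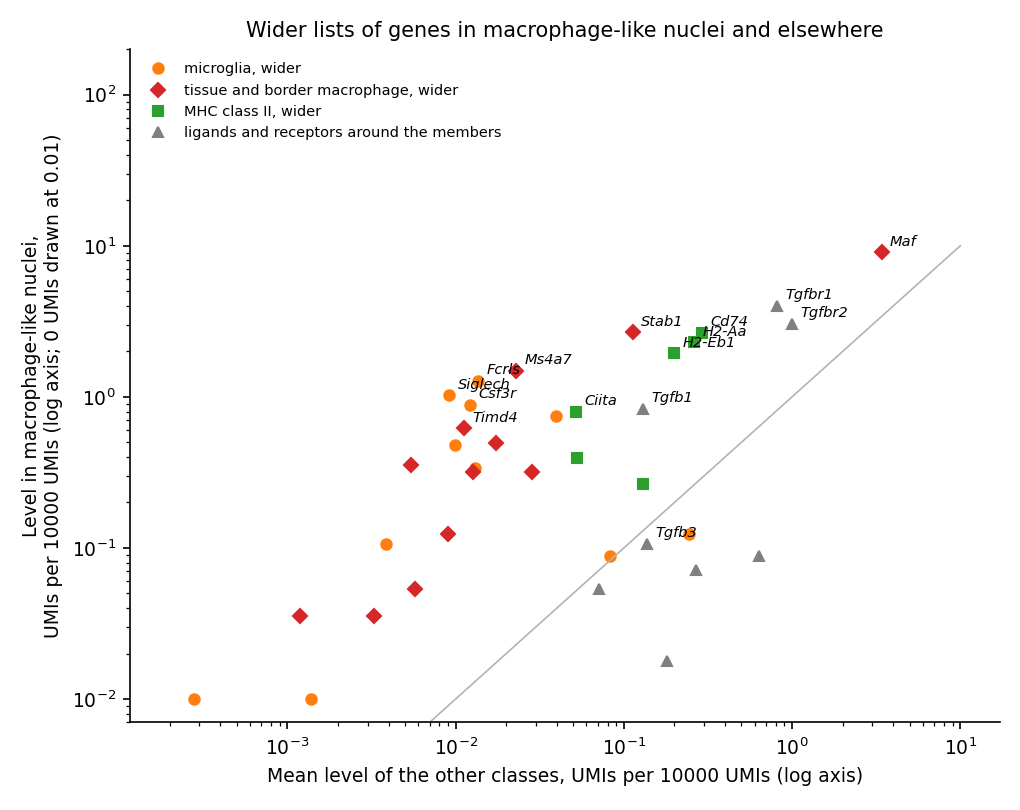
Each point is a gene of 1 of 4 wider lists, less 1 gene that is not shown, with its mean level over the other 10 classes on the x axis and its level in macrophage-like nuclei on the y axis, both as UMIs per 10000 UMIs on log axes, with a line where both are equal and the highest genes of each list named. With 0.05 added to both levels, *Fcrls* (20.9-fold), *Siglech* (18.3-fold) and *Csf3r* (15.1-fold) of the microglia list lie above the line, as do *Ms4a7* (21.2-fold) and *Timd4* of the tissue macrophage list.

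Markers of other blood cells were also seen in the class. The sums of the monocyte list (6 genes) and of the T and NK cell list (8 genes) were above the 1.81 of the 3 microglia members. Genes past 2-fold are counted among those with at least 20 UMIs in the series. The monocyte list summed to 3.04 per 10000, mostly *Ccr2* at 2.06 (1.70 to 2.47). Of its 4 genes with enough UMIs *Ccr2* alone was past 2-fold, while its defining *Ly6c2* and *Chil3* were at 0. The T and NK cell list summed to 2.76 with all 8 genes seen, led by *Skap1* at 1.55 in 19 nuclei. All 4 of its genes with enough UMIs were past 2-fold, and 7 of the 8 were highest in this class. *Cd3e* had 2 UMIs and *Cd3d* 1. The dendritic cell list summed to 1.14, with *Zbtb46* highest at 0.444 but below the mean of the other classes. Of its 4 genes with enough UMIs 2 were past 2-fold, *Cd209a* (5.72-fold, 14 UMIs) and *Flt3* (2.47-fold, 12 UMIs). The mast cell list summed to 0.622, with *Kit* highest at 0.409 but also below the other classes, *Hdc* past 2-fold (3.58-fold, 9 UMIs) and *Fcer1a* at 0. The B cell list summed to 0.533. Its 2 genes with enough UMIs, *Pax5* at 0.213 and *Ms4a1* at 0.107, were past 2-fold, and all 6 were highest in this class. The neutrophil list summed to 0.391. Of its 5 genes with enough UMIs 2 were past 2-fold, *S100a9* at 0.196 and *Cxcr2* at 0.0711. The neuron list summed to 18.5, below its mean of 23.0 in the other classes. The part of these cells in the members' levels was not tested.

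The genes whose levels followed a member most closely over 40 units, the clusters of each library with at least 10 nuclei, were picked from 17097 genes by Pearson's r of log2 levels with 0.05 added. For *Mrc1* these were *Rbpj* (r = 0.92), *Cd244a* (0.91), *Lilr4b* (0.90), *Cd33* (0.90) and *F630028O10Rik* (0.90), and of the other members *Cd163* (0.91) and *F13a1* (0.85) came closest. *P2ry12* was nearest to *Itga4* (0.79), *Gm31243* (0.74), *E230029C05Rik* (0.71), *Pou2f2* (0.70) and *Gm21057* (0.69), and had r = 0.42 with *Mrc1*. *H2-Ab1* was nearest to *H2-Eb1* (0.92), *Cd74* (0.78), *H2-Aa* (0.77), *Apobec1* (0.76) and *Laptm5* (0.76). Units of a library share its depth and free RNA, 2 of them are macrophage-like, and the values are descriptions. *Tmem119*, with 40 UMIs in the series, and *Sall1*, with 35, were too scarce for this.

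In macrophage-like nuclei most members stood lower in the male than in the female library. Of the 7 with at least 20 UMIs there, 6 had a male over female log2 ratio below 0, and for 5 the whole interval lay below 0. How many of all genes meet either was not counted, so neither count is set against a background. *H2-Ab1* alone passed 2-fold, with a log2 ratio of -1.34 (-2.22 to -0.52) from 43 and 18 UMIs. Among all 6147 genes with as many UMIs, 5.74% were 2-fold or more lower and 10.1% 2-fold or more higher in the male library, so 1 of 7 lower and 0 of 7 higher were the members' counts against that background. The log2 ratio was -0.69 (-0.89 to -0.49) for *F13a1*, -0.63 (-0.86 to -0.41) for *Mrc1*, -0.64 (-1.28 to -0.02) for *P2ry12*, -0.53 (-1.03 to -0.03) for *Csf1r* and -0.58 (-1.28 to 0.11) for *Cx3cr1*. *Cd163* was at 0.14 (-0.41 to 0.69), and its sign turned in nuclei of over 2000 UMIs (-0.45), in both choices of nuclei without clustering (-0.40 and -0.06) and without the male nucleus of most *Cd163* UMIs (-0.04). The level of *P2ry12* was thus lower in the male library as those of *Mrc1* and *F13a1* were. In both choices of nuclei without clustering the log2 ratio of *P2ry12* was -0.27 and -0.86. The median was -0.63 over the 7 against -0.03 over all genes.

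The general macrophage list, which named the class, was lower in the male library as well. It summed to 69.3 per 10000 in female and 47.1 in male nuclei, a log2 ratio of -0.56 (-0.66 to -0.46). Of its 19 genes of at least 20 UMIs, 18 were lower in the male library, a count that again has no background over all genes. Also lower in the male library were the wider microglia list, at 7.80 and 5.49, the wider tissue macrophage list, with 503 and 377 UMIs, and the wider MHC class II list, at 9.97 and 6.87. Of the other blood cells, the monocyte list was at 3.99 and 2.14, the T and NK cell list at 3.554 and 2.004, the mast cell list at 0.953 and 0.311 and the dendritic cell list at 1.17 and 1.11, while the neutrophil list, at 0.293 and 0.484, and the B cell list, at 0.22 and 0.829, were higher in the male library. The neuron list went the other way, at 12.1 and 24.5, as did the Schwann cell list, at 12.2 and 22.1, and the satellite glia list, at 3.85 and 8.29, whereas the pituitary cell list (2.67 and 0.587), the barrier fibroblast list (3.004 and 1.554) and the endothelial cell list (1.69 and 0.829) were lower in it. The part of such RNA in the members' lower male levels was not tested. In nuclei of over 2000 UMIs the log2 ratio was -1.08 for both *Mrc1* and *F13a1*, and in nuclei taken by general macrophage UMIs without clustering it was -1.04 and -1.05, all past 2-fold. As sequenced, shares of nuclei overlapped in their intervals: *Mrc1* was found in 66.9% of female (58.3 to 74.7) and 61.8% of male nuclei (53.0 to 70.0), and *F13a1* in 58.8% and 57.4%, while *H2-Ab1* was found in 21.3% (14.8 to 29.2) and 11.0% (6.31 to 17.5). Thinned to 1000 UMIs, the shares still overlapped for *Mrc1*, 57.0% (48.2 to 65.5) and 46.3% (37.7 to 55.1), and *F13a1*, 53.3% and 47.1%. The gap was wider among the 44 female and 56 male nuclei of over 2000 UMIs, at 86.4% and 62.5% for *Mrc1*, 81.8% and 53.6% for *F13a1* and 65.9% and 32.1% for *Csf1r*. For *P2ry12* the thinned share was no lower in the male library, at 14.1% of female (8.69 to 21.1) and 14.7% of male nuclei (9.22 to 21.8). That of *Cx3cr1* was 11.9% and 14.7%. Over 2000 UMIs the female share was the higher for both, at 45.5% and 26.8% for *P2ry12* and 36.4% and 21.4% for *Cx3cr1*. Where found, *F13a1* gave a mean of 6.48 UMIs per female and 4.37 per male nucleus, and *Mrc1* 4.48 and 3.32. *Lyve1* (5 and 13 UMIs), *Tmem119* (2 and 1) and *Sall1* (5 and 0) had too few UMIs for a ratio.

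**Figure D5:**
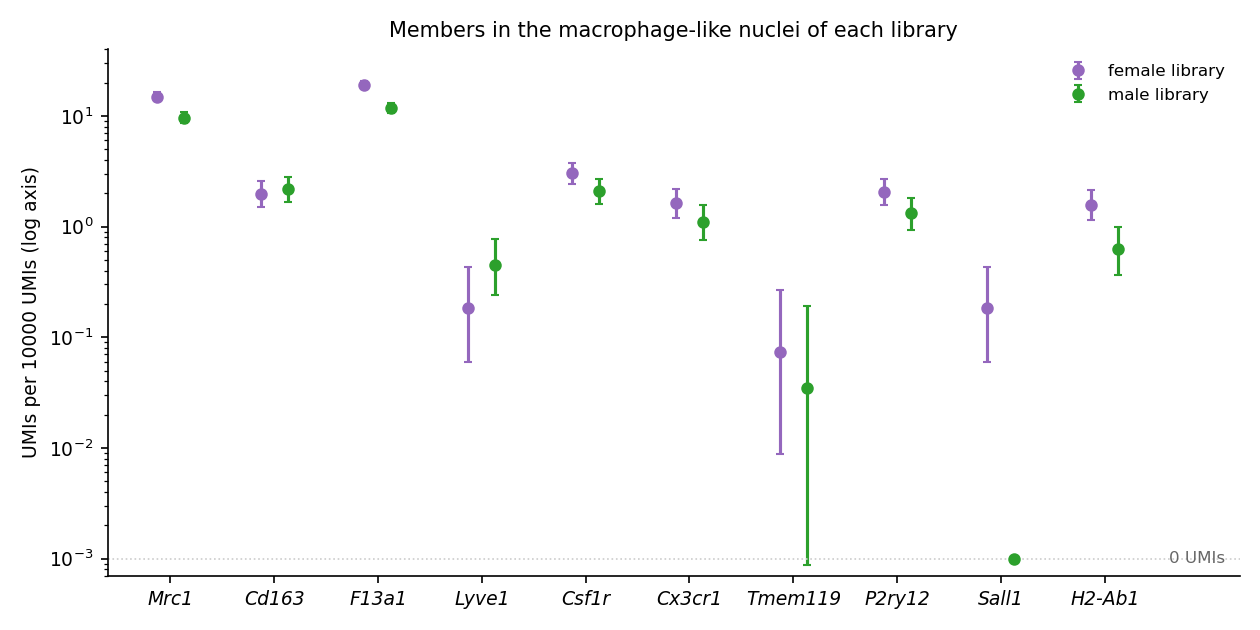
Level of each member in the 136 macrophage-like nuclei of the female (purple) and of the male (green) library, as UMIs per 10000 UMIs on a log axis with 95% Poisson intervals. The intervals of *Mrc1*, *F13a1* and *H2-Ab1* do not overlap between the libraries, and *Sall1* had no UMI in the male library, drawn at the dotted line without its interval.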

How the data were processed

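RNA of single nuclei was measured in 1 female and 1 male library. The values are whole UMI counts of each gene in each nucleus as deposited, which the authors made with Cell Ranger 7.1.0 on mm10 with an added transgene sequence and introns included. Barcodes were kept by DIEM debris score and by a least number of genes and of UMIs, so shallower nuclei are missing. Then cellranger aggr, which evens out mapped reads between libraries, merged both, so the counts are not all those sequenced (3791 female and 4923 male nuclei, 17435300 and 27529730 UMIs). Each barcode's library number was given a sex because the number of nuclei equals that stated. The sources used here name no annotation release.

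Clusters were rebuilt after the defaults of cellranger reanalyze (genes seen in at least 3 nuclei, 10 principal components, 243 neighbours), with Louvain resolution 3 set to reach 20 clusters as in the study, with igraph 0.11.9 and scikit-learn 1.9.0. The members, the wider lists, 6 sex-linked genes and 115 genes the study lists by sex were left out. A cluster took the name of the marker list of highest mean log2 fold if 3 markers with 10 UMIs reached 1.5-fold. No doublet caller was run, since the study says possible doublets were removed, and nuclei of over 3 times the median UMIs were left out as an alternative. Levels are summed UMIs per 10000 UMIs with exact Poisson intervals, shares carry exact Clopper-Pearson intervals and ratios exact conditional binomial ones (SciPy 1.17.1), all at 95% and for counting error only. A count of 0 was given a limit of 3 UMIs or nuclei. Intervals and ratios were tested on simulated Poisson counts, which show that they are computed correctly. Those counts hold no spread between nuclei or animals, so the intervals were not tested for it. Gene positions are from GENCODE on GRCm38, the same build. The members and lists were chosen with earlier results of these data known. Named were the 10 members, the 4 genes of highest level of each wider list, the highest of each blood cell list and the 5 most alike genes of a member, and further genes, and the splits by *P2ry12* and *Ccr2*, were chosen after values were seen. Of the wider lists, 1 gene is counted but not reported by name here. Levels were recomputed for other choices of nuclei.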

Additional observations from a re-analysis of the deposited data

How the results depend on the processing

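With the members and lists left in the clustering, and with genes scaled within each library, 272 macrophage-like nuclei were found each time, 272 and 268 of them the same, and the levels of *Mrc1* and the summed members moved by less than their counting intervals. Taking nuclei with at least 3 general macrophage UMIs and 10 per 10000, without clustering, gave 633 nuclei, 111 of them neuron-like, and lowered the level of *Mrc1* to 2.87 per 10000, the summed tissue macrophage members to 6.95 and the summed microglia members to 0.655. Asking for at least 3 general macrophage genes besides *Runx1* and *Mertk*, an alternative chosen after seeing the data, gave 293 nuclei and 9.08, 22.3 and 1.38. The female library alone gave 14.9, 36.1 and 2.31 and the male library alone 9.64, 24.0 and 1.35. In nuclei of over 2000 UMIs the tissue macrophage sum was 32.4, and less the neuron-like level the microglia sum was 1.46. No value with an interval apart from 0 turned its direction. Depth limits the levels of *Tmem119*, *Sall1* and *Lyve1*, which rest on 3, 5 and 18 UMIs, and it lowers shares of nuclei, as thinning did for *P2ry12* (26.1% to 14.4%) and *Cx3cr1* (23.9% to 13.3%). The libraries hold 1 pool each, so no spread between animals is known.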
